A study of Gallus gallus with 2 samples.

Results

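Mesoderm-4 is 1 of 6 mesoderm classes that the authors named among cells of whole chicken embryos at stage HH5. Its members were taken here as every cell whose deposited class name is mesoderm-4, which gave 666 of 7750 cells, or 8.59% (exact 95% binomial interval 7.98 to 9.24%, counting error only). They made up 22.7% of the 2936 mesoderm cells (21.2 to 24.2%). The embryos carried no stated genetic change or treatment. After dissection in Ringer's solution, enzymes turned the embryos into single cells, and 10x Multiome chemistry captured the RNA of each cell together with its accessible chromatin (ATAC). The preparation was a single one, with 1 RNA and 1 ATAC library, so cells are not replicates and no difference between classes or places could be tested. The sources used here do not give the number of embryos pooled.

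At this stage of chick development, cells leave the epithelial upper layer through the primitive streak and spread beneath it as mesoderm. In fate maps of the chick, the place at which a cell leaves the streak foreshadows its fate. Cells from the anterior streak form axial and paraxial mesoderm, cells from its middle part form lateral plate, and cells from its posterior part form extraembryonic mesoderm, including the blood islands that make the first blood and vessel cells. The name mesoderm-4 gives no tissue. The table used here holds no gene values, so neither the class name nor a tissue of origin could be checked against marker genes, and the class is described by its number, its ATAC rank and its place in the embedding.

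The ATAC rank is a whole number that the authors gave once each to 6681 cells of 13 classes. The sources used here do not state the ranked quantity or what its low and high ends stand for. All 666 mesoderm-4 cells had a rank, and none of the 420 blood island cells did. The embedding is the authors' plane of RNA and ATAC similarity (a weighted nearest neighbour UMAP), and its coordinates have no unit. The embedding draws on the ATAC profiles of these cells and, judging by its name only, so does the rank. The class column holds cluster names. Relations among the 3 are therefore descriptions and not independent evidence, and distances in the plane are not distances in the embryo.

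Mesoderm-4 cells lay towards the upper end of the rank, which they shared with other classes. Its 1st percentile was rank 3673, its 10th percentile 4442, its lower quartile 5064, its median 5798.5, its upper quartile 6279.5 and its 90th percentile 6517.5. The counting interval of the median ran from 5680 to 5886. The lowest member had rank 3247 and the next 3318, and these 2 cells, or 0.300% of the class (0.0364 to 1.08%), were the members below the middle rank of 3341. The 5 highest members had ranks 6680, 6678, 6675, 6673 and 6665. The single highest rank in the table, 6681, belonged to a mesoderm-2 cell.

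**Figure D1:**
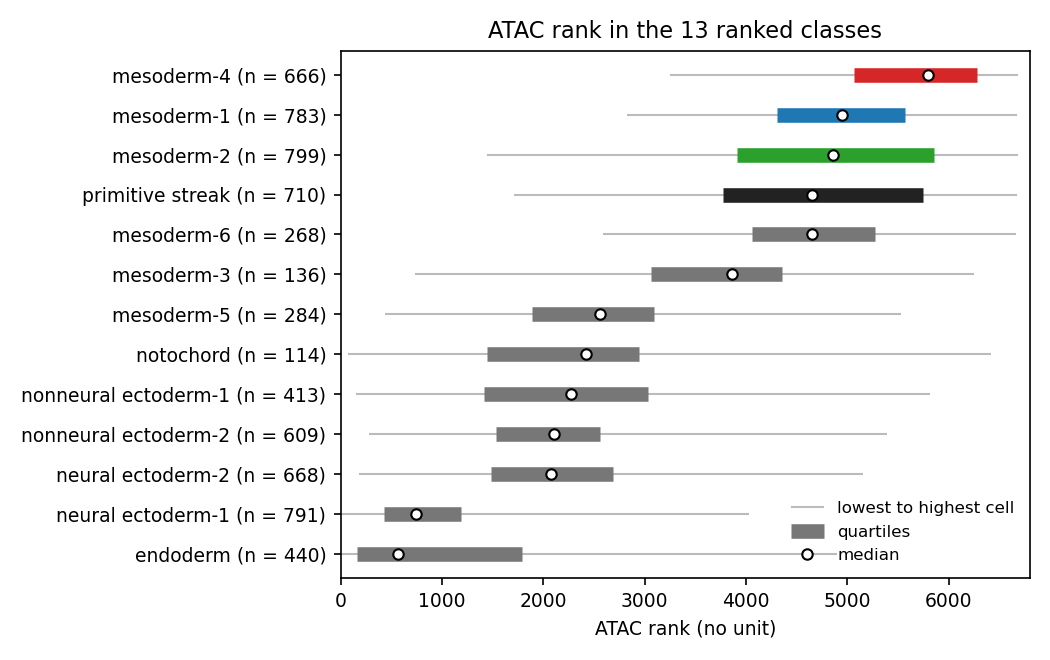
ATAC rank (horizontal axis, no unit) of the 13 ranked classes with the number of cells in each. White points are medians, thick bars run between the quartiles and thin lines from the lowest to the highest cell. Mesoderm-4 has the highest median, 5798.5, and its range of 3247 to 6680 overlaps that of every other ranked class.

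The classes next in order of median lay well below mesoderm-4 in their typical cells but reached equally high ranks. Mesoderm-1 had a median of 4944 (counting interval 4861 to 5032), mesoderm-2 a median of 4854 (4709 to 5029) and the primitive streak a median of 4654.5 (4496 to 4839). Their highest cells had ranks 6679, 6681 and 6676. In all pairs of 1 mesoderm-4 and 1 mesoderm-1 cell, the mesoderm-4 cell had the higher rank in 72.8%, where 50% would be no difference in level. The value was 69.4% against mesoderm-2 and 77.5% against mesoderm-6. The members were spread over an interquartile range of 1215.5 ranks, close to the 1262 of mesoderm-1 and narrower than the 1937.5 of mesoderm-2 and the 1975.25 of the streak. Ranks cannot exceed 6681, which limits the upper tail of the class.

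The share of mesoderm-4 was larger in each higher bin of the rank, from bin 5 upwards. The ranks were divided into 10 bins of 668 cells (669 in the lowest). The class supplied 2 cells to bin 5, 19 to bin 6, 80 to bin 7, 125 to bin 8, 175 to bin 9 and 265 to bin 10. These counts are 0.299%, 2.84%, 12.0%, 18.7%, 26.2% and 39.7% of those bins, and the class as a whole is 9.97% of ranked cells. Its counting intervals were 22.9 to 29.7% in bin 9 and 35.9 to 43.5% in bin 10. Mesoderm-1 went the other way at the top, with 27.5% of bin 9 and 12.1% of bin 10.

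**Figure D2:**
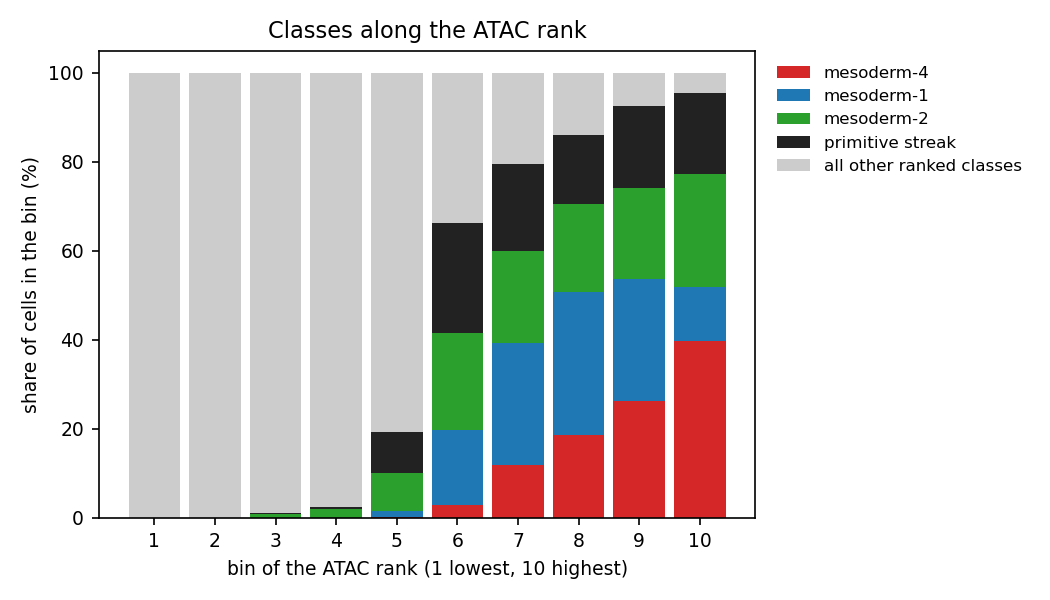
Share of cells (vertical axis, percent) of mesoderm-4, mesoderm-1, mesoderm-2, the primitive streak and all other ranked classes in each of 10 bins of the ATAC rank (horizontal axis, 1 is lowest). The share of mesoderm-4 goes from 2.84% in bin 6 to 39.7% in bin 10.

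Within bin 10, the share of mesoderm-4 changed little towards the very top. Of the 500 highest ranks, 207 were mesoderm-4 cells, or 41.4% (37.0 to 45.9%). Of the 100 highest, 41 were, or 41.0% (31.3 to 51.3%), and of the 50 highest, 23 were (46.0%, 31.8 to 60.7%). Mesoderm-1 supplied 48 of the 500 highest, 4 of the 100 highest and 1 of the 50 highest. Mesoderm-2 supplied 32 and the streak 20 of the 100 highest. The top of the rank was thus shared by cells of mesoderm-4, mesoderm-2 and the streak, with few from mesoderm-1.

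When the 2936 mesoderm cells alone were ordered by rank and cut into 4 groups of 734 cells, mesoderm-4 supplied 19 cells of the lowest group, 115 and 193 of the next ones and 339 of the highest. It was 2.59% (1.57 to 4.01%) of the lowest group and 46.2% (42.5 to 49.9%) of the highest. Of the members, 79.9% lay above the middle of all mesoderm.

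In the embedding, mesoderm-4 formed a curved band that ran from the primitive streak to the blood islands. With cells joined when they lay within 0.5 units of each other, 663 of the 666 members were 1 connected arc. The arc reached from 0.78 to 5.70 on the second coordinate and from -5.98 to -2.03 on the first. Its lower end lay above the median position of the streak, which was -2.32 on the first and -1.05 on the second coordinate. Some streak cells reached as high as the lower end of the arc. Its upper end lay beside the blood islands, with a median position of -6.01 and 6.34. Mesoderm-1 (medians -2.05 and 5.51) and mesoderm-2 (medians -1.27 and 2.97) lay along its inner, right-hand side. Its outer, left-hand side faced no other class, apart from 1 endoderm cell and, at the upper end, blood islands.

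**Figure D3:**
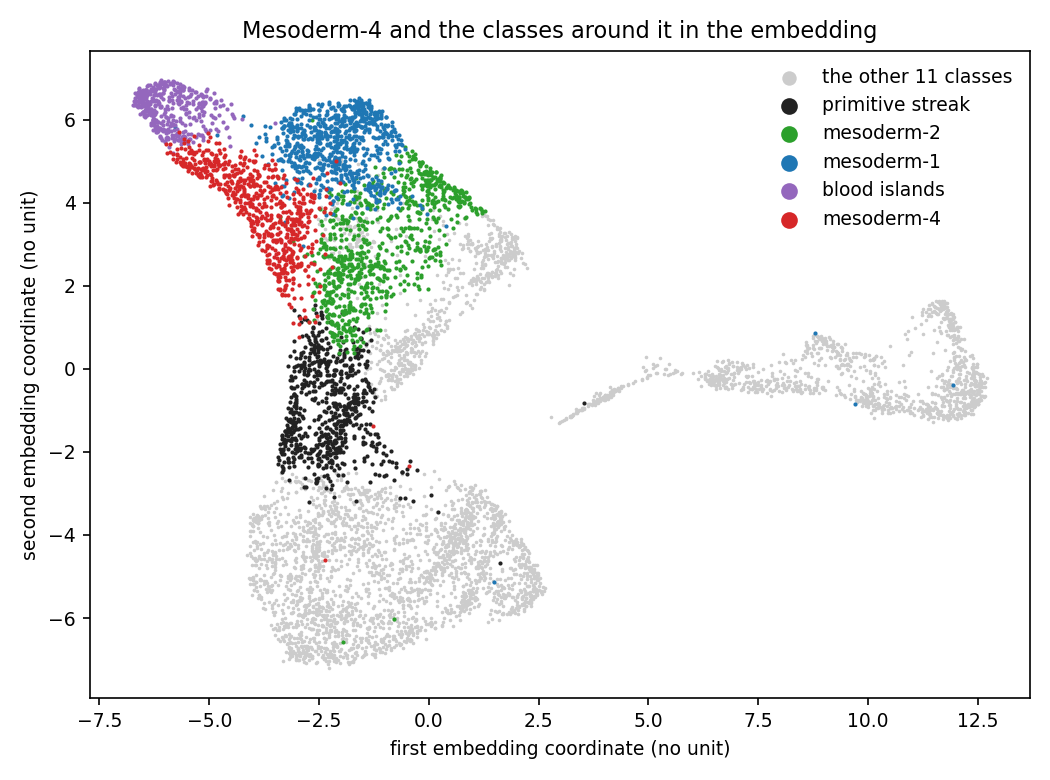
All 7750 cells in the authors' embedding (both axes are coordinates without a unit). Each point is a cell, with mesoderm-4 in red, blood islands in purple, mesoderm-1 in blue, mesoderm-2 in green, the primitive streak in black and the other classes in grey. The 663 connected mesoderm-4 cells span 0.78 to 5.70 on the vertical axis, between the streak and the blood islands.

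Mesoderm-1, mesoderm-2 and blood islands were the most frequent neighbours of the band. For each member, the nearest cell of any other class was a mesoderm-1 cell in 187 cases (28.1%), a blood island cell in 172 (25.8%), a mesoderm-2 cell in 169 (25.4%) and a streak cell in 26 (3.90%). In 58 cases (8.71%) it was one and the same endoderm cell inside the band, in 47 (7.06%) a neural ectoderm-2 cell and in 7 a mesoderm-3 cell. Most members lay well inside the class. Of the 15 nearest cells of a member, 90.1% on average were mesoderm-4, and for 432 members (64.9%) all 15 were. Such compactness may be built in, since the clusters may come from the same profiles. Of the other-class cells, mesoderm-1 gave 3.38% of the nearest cells, mesoderm-2 2.56%, blood islands 1.78% and the streak 1.09%. Mesoderm-5, mesoderm-6, the notochord, neural ectoderm-1, extraembryonic endoderm and the area opaca gave none.

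Pooled over all neighbouring classes, members with cells of other classes close by ranked lower than the rest. The 432 cells with only mesoderm-4 around them had a median rank of 5948 (quartiles 5282.5 and 6340.5). The 234 cells with at least 1 cell of another class among their 15 nearest had a median of 5471.5 (quartiles 4761.5 and 6052.5). The cell surrounded by its own class was higher in 63.1% of pairs, and the quartile ranges overlapped. The neighbouring classes differed in this. Among those near at least 10 members, the median of such members ran from 5126.5 beside blood islands to 6336.5 beside the endoderm cell. This division does not set the middle of the band against its edges, since cells on the outer edge have almost no other class near them. The 48 members mostly surrounded by other classes (under 8 of 15 nearest cells from mesoderm-4) had a median of 5307.5 (quartiles 4764.5 and 5922).

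Measured against a curved midline fitted to the band, the rank of mesoderm-4 varied across the band more than along it. The connected cells were cut into 5 equal parts by their position along the band, read from the second coordinate. They were also cut into 5 by their distance, in the first coordinate, to either side of a curved midline. At its upper end the band also runs leftwards, so there the directions along and across it are partly mixed. Along the band, the part at the streak end had a median of 5925 and the uppermost part 5525.5. The 3 parts between them had medians of 5810, 5911 and 5889. Across the band, the median was 6065 in the outermost part (quartiles 5480 and 6412) and 5352 in the innermost (quartiles 4740.5 and 6015.75). The outermost cell was higher in 68.7% of pairs. Bin 10 held 53.4% of the outermost cells (44.5 to 62.1%) and 33 of the 132 innermost cells (17.9 to 33.3%). Differences between the 5 parts across the band made up 6.77% of the rank variance and those along it 1.66%, so most of the variation lay within each part. Rank and position across the band had a Spearman's rho of -0.25, counted from outer to inner, and rank and position along it one of -0.12, over 663 cells of 1 preparation. With straight axes in place of the curved midline, the values were -0.17 across and -0.035 along.

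**Figure D4:**
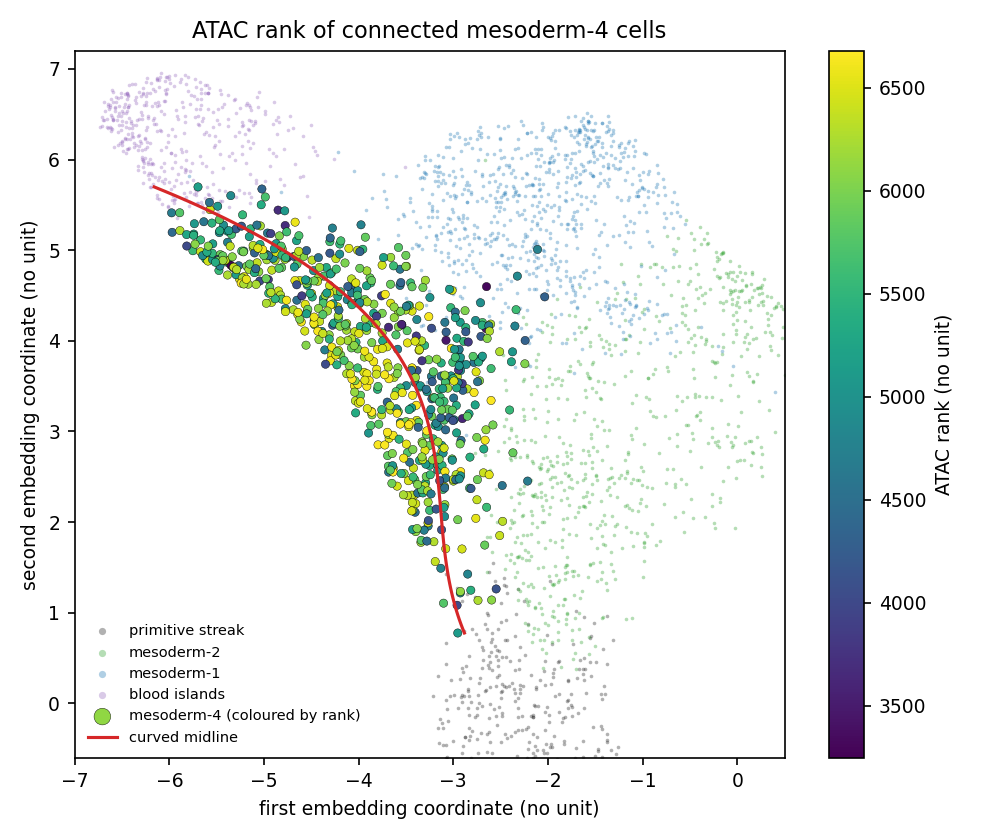
The 663 connected mesoderm-4 cells in the embedding (both axes without a unit), coloured by ATAC rank from low (dark) to high (yellow), with neighbouring classes as faint points and the curved midline in red. High ranks are more frequent on the outer, left-hand side, with medians of 6065 in the outermost and 5352 in the innermost of 5 parts.

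The difference across the band was widest midway along it and smallest in its uppermost stretch, where position across is partly position along the band. The connected cells were cut into 3 stretches along the band (221 cells each), and each of these into an outer, a middle and an inner field of 73 or 74 cells. Midway, the median rank was 6223 in the outer field (quartiles 5910 and 6516.75), 6004.5 in the middle field and 5244 in the inner field (quartiles 4773 and 6010). The outer cell was higher than the inner cell in 78.0% of pairs, and 50 of 74 outer cells (67.6%) against 18 of 73 inner cells (24.7%) were in bin 10. In the lowermost stretch, at the streak end, the outer field had a median of 6107.5 (quartiles 5746 and 6457.25). The inner field there had one of 5613 (quartiles 5034 and 6160), and the outer cell was higher in 67.8% of pairs. Few cells of this stretch bordered the streak. In the uppermost stretch, the medians were 5735 in the outer, 5673.5 in the middle and 5528 in the inner field. The outer cell was higher in 58.0% of pairs there. Outer cells of this stretch also lie farther along the band to the left, so this gap does not compare its sides alone. The quartile ranges of outer and inner fields overlapped in all 3 places.

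**Figure D5:**
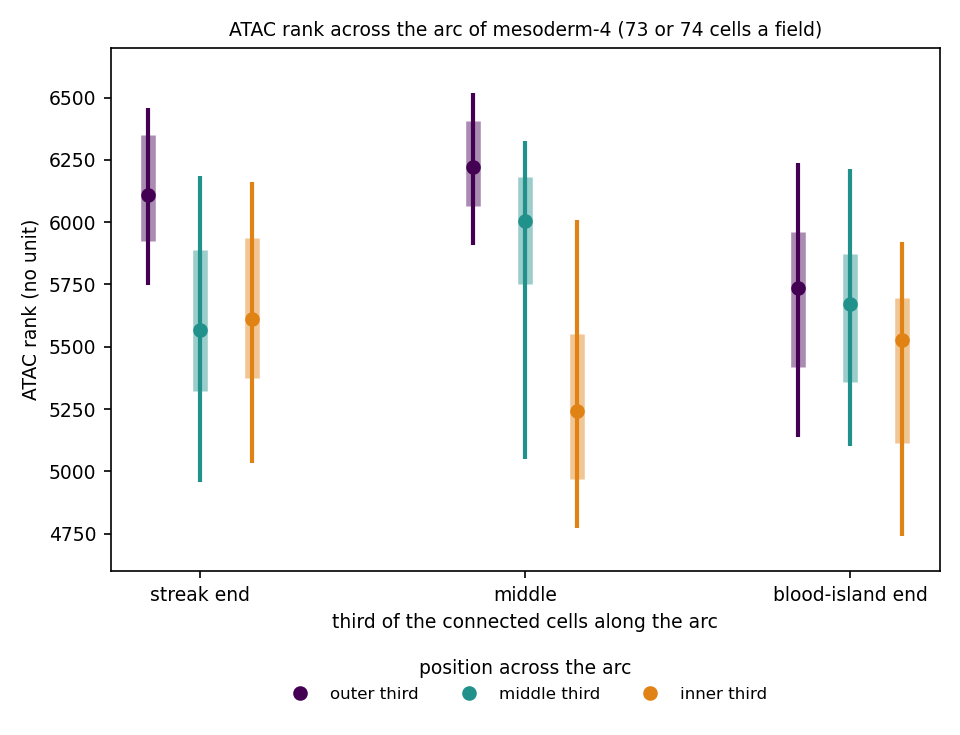
ATAC rank (vertical axis, no unit, not starting at 0) in 9 fields of the mesoderm-4 band. Points are medians, thick pale bars their 95% counting intervals and thin lines the quartiles, for the outer, middle and inner field at each of 3 places along the band. The widest gap is midway along the band, 6223 in the outer field against 5244 in the inner.

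The inner fields also had the most cells of other classes around them. Midway along the band, all nearest cells of the outer field were mesoderm-4, and in the inner field 80.3% were mesoderm-4, 12.6% mesoderm-1 and 2.47% mesoderm-2. In the lowermost stretch, 17.4% of the nearest cells of the inner field were mesoderm-2 and 3.65% streak cells. In the uppermost stretch, 14.3% of those of the inner field were mesoderm-1 and 9.04% blood islands. The part of these neighbours in the lower inner ranks was not tested.

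The cells at the extremes of the class lay mostly, but not all, on opposite sides of the band. The 66 highest-ranked connected members (ranks 6520 to 6680) lay on the outer side of the midline in 50 cases, or 75.8% (63.6 to 85.5%). The 67 lowest-ranked (3247 to 4448) did so in 21 cases, or 31.3% (20.6 to 43.8%), and all connected members in 53.1%. Of the nearest cells of the highest-ranked members, 0.909% were mesoderm-1, against 6.27% for the lowest-ranked. For mesoderm-2 the order was the other way, 2.73% against 1.89%.

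The border with blood islands lay at the upper end of the band and held low-ranking members. A border cell is a member with at least 1 cell of the other class among its 15 nearest, and 38 mesoderm-4 cells (5.71%) bordered blood islands, at median coordinates of -5.47 and 5.28. Their ranks ran from 3681 to 6576, with a median of 5126.5 and quartiles of 4585.75 and 5541.5. A blood island border cell ranked above another mesoderm-4 cell in 29.0% of pairs. From the other side, 55 of the 420 blood island cells (13.1%) had a mesoderm-4 cell among their nearest, and as they have no rank, the rank could not be followed into that class. With the connected members cut into 5 parts by their distance from the nearest blood island cell, the median rank was 5524 in the closest part and 5920, 6013.5, 5613 and 5867 in the parts farther away, so it did not change in 1 direction along the band.

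The border with mesoderm-1 held the most members, and ranks on its sides were close to each other. The 106 members at this border (15.9%) had a median rank of 5383.5 (quartiles 4674.75 and 6056.25), against 5867.5 for the other 560 members. The 94 mesoderm-1 cells facing them had a median of 5426 (quartiles 4623.75 and 5909.25), against 4887 for the other 689 mesoderm-1 cells. A mesoderm-4 border cell was higher than a facing mesoderm-1 cell in 52.8% of pairs (49.5% with 5 nearest cells), whereas over the whole classes it was 72.8%. Members near this border were thus low for their class and mesoderm-1 cells near it high for theirs. In 5 parts by distance from the nearest mesoderm-1 cell, the median rank of connected members was 5469, 5627, 5728.5, 5909 and 6063, from the closest to the farthest. By distance to the 5th nearest mesoderm-1 cell, the medians were 5551, 5701, 5929.5, 5889 and 5766.5, so the farthest members were then not the highest.

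At the border with mesoderm-2, the cells of mesoderm-2 tended to be the higher ones, less so under other border definitions. The 89 members there (13.4%) had a median of 5605 (quartiles 4774 and 6033), against 5811 for the other members. With at least 3 of the 15 nearest cells required, 26 members remained in this border and the direction turned, 5903.5 against 5794.5. The 72 mesoderm-2 cells facing them had a median of 5953 (quartiles 5446.5 and 6371.5), against 4736 for the rest of mesoderm-2. The mesoderm-4 border cell was higher in 38.2% of pairs, whereas over the whole classes it was 69.4%. With at least 3 of 15 nearest cells required, the border value was 46.3%, close to 50%, over 26 cells of each class. Of the members, 35 bordered both mesoderm-1 and mesoderm-2, so these edges are not separate samples of cells.

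The border with the primitive streak held the fewest members of these 4. Its 17 members (2.55%) lay at median coordinates of -2.91 and 1.23, and 11 of them also bordered mesoderm-2. Of the 17, 15 lay in the connected band and 2 were detached cells among streak cells. The detached cells gave 26 of the 109 pairs of a member and a nearest streak cell, in which a streak cell can recur. The ranks of the 17 members ran from 4042 to 6463. The median was 5761, with a wide counting interval of 4849 to 6255. The other 649 members had a median of 5799, and the difference was not tested. The 39 streak cells facing mesoderm-4 had a median of 5389 (quartiles 4392 and 6305.5), against 4605 for the other 671 streak cells. The mesoderm-4 cell was higher in 54.0% of pairs at the border and in 72.9% over the whole classes. The direction at the border turned without the 2 detached cells, which were left out only after the data had been seen. The 15 members in the band had a median of 5761 and the 20 streak cells facing them one of 6223.5, with the mesoderm-4 cell higher in 32.7% of pairs. It was also below 50% with 5 nearest cells (40.0%) and with at least 3 of 15 (48.7%). No member bordered both the streak and blood islands, and 6 bordered both blood islands and mesoderm-1.

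Within mesoderm-4, the rank of a cell was only weakly related to that of the cells nearest to it. The rank of a member and the median rank of its 15 nearest members had a Spearman's rho of 0.32 over 666 cells. With 5 nearest members the rho was 0.23 and with 50 it was 0.30. At 15, mesoderm-4 had the lowest rho of the 13 ranked classes, but mesoderm-1 (0.35) and neural ectoderm-1 (0.37) were close to it. The median gap between the rank of a member and the median rank of its 15 nearest members was 482.5. The gap was 481 in mesoderm-2 (rho 0.72), 491 in mesoderm-6 (0.52), 530 in mesoderm-1 (0.35), 538 in mesoderm-3 (0.60) and 401.5 in the streak (0.78). The gap in mesoderm-4 was thus close to that in mesoderm-2, while the rho was lower. The SD of the rank was 788 in mesoderm-4, 812 in mesoderm-1, 1095 in the streak and 1159 in mesoderm-2, and the part of that spread in the rho was not tested.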

How the data were processed

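The authors deposited 1 table that lists 7750 cell barcodes. Each barcode occurred once, and all carried the same library suffix. Per the file headers, it gives an ATAC rank, a class name and a position in a weighted nearest neighbour UMAP. Rank and coordinates are scores without a unit, as deposited, and the class names are the authors' annotation. The submitters' processing notes name Signac 1.8.0, Seurat 4.3.0, Cell Ranger ARC 2.0.0 and the build galGal6. The sources used here give no settings, cell filters or treatment of doublets. Depth, gene counts and quality measures of single cells were not analysed here, and the depth behind a rank is unknown.

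Shares carry exact (Clopper-Pearson) 95% intervals and medians carry 95% binomial order-statistic intervals, both for counting error only. Nearest cells (15) were found by Euclidean distance in the embedding. Connected cells came from single linkage at 0.5. The midline was a cubic fit of the first coordinate on the second, and position across the band the difference from it in the first coordinate. Pairs were all pairs of cells of the 2 groups named. No p-value was computed. Classes were named by a rule: mesoderm-4, the borders given for it, and classes with 10 or more border cells. Mesoderm-6 and neural ectoderm-1 were given with values outside this rule, and some other classes were named only as giving no nearest cells. The members, summaries and comparisons were chosen with earlier results of these data known. The band, its fields, the cells with or without another class nearby, the distances and the facing cells were added after the table had been plotted. Functions were tested on simulated data. Python 3.11.15, pandas 2.3.3, NumPy 2.4.6 and SciPy 1.17.1 were used.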

Additional observations from a re-analysis of the deposited data

How the results depend on the processing

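Of 68 alternatives planned for the class, 44 kept a value within its tolerance, and so did 28 of 33 added after seeing the data. The tolerance was the counting interval for shares and medians, 1.5 times for counts of cells and 0.1 for correlations. For percentages of pairs it was a binomial interval on the cell number of the smaller group, with 50% as the point where direction turns. The mean rank of mesoderm-4 was 5617, below the median of 5798.5. With 5 bins in place of 10, the class held 32.9% of the highest bin. The number of border cells depends on the definition. With 5 nearest cells, at least 3 of 15, or 50 nearest cells, it was 52, 45 or 205 for mesoderm-1, 51, 26 or 205 for mesoderm-2, and 20, 18 or 60 for blood islands. For the streak it was 28 with 50 nearest cells. With at least 3 of 15, the median rank of mesoderm-2 border cells was 5903.5, above the 5794.5 of other members, so the direction at that border is not stable. The median of streak border cells was 5413 with 5 nearest cells and 5116 with at least 3 of 15, within a wide interval. At the streak border, the mesoderm-4 cell was higher than the facing cell in 54.0% of pairs as reported, 40.0% with 5 nearest cells, 48.7% with at least 3 of 15, 59.6% with 50, and 32.7% without the 2 members outside the band, so its direction is not stable. At the mesoderm-1 border the value ran from 49.5 (5 nearest cells) to 60.0%, and at the mesoderm-2 border from 38.2 to 46.3%. Midway along the band, the outer cell was above the inner in 75.6 to 78.3% of pairs under straight axes, a quadratic midline and without cells mostly surrounded by other classes. Under the same alternatives it was 63.8 to 69.5% in the lowermost stretch and 54.2 to 57.7% in the uppermost stretch. The lowest value in each of those stretches came from straight axes. In the members farthest from mesoderm-1, the median was 6063, and 5766.5 by the 5th nearest cell. The causes were not tested. RNA and ATAC came from the same cells, but no RNA values of single cells were used here, so RNA and ATAC were not paired. No sample groups were compared. Depth limits on these values are unknown.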

Other observations

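The 3 members outside the connected band lay among other tissues. One had rank 6411 and 11 of its 15 nearest cells in the primitive streak. Another had rank 4849 and all 15 in the streak, and the remaining one had rank 4246 and 14 of 15 in neural ectoderm-2. The class median of neural ectoderm-2 was 2075.5, below the rank of every mesoderm-4 cell.

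Single cells of other germ layers lay inside the band. One endoderm cell was the nearest cell of another class for 58 members, and its rank of 3571 compared with a median of 564.5 in endoderm and of 6110 in the mesoderm-4 cells around it. A pair of neural ectoderm-2 cells inside the band had ranks 3764 and 4554, both above their class median. Those cells accounted for the 10 members at an endoderm border and for 30 of the 31 members at a neural ectoderm-2 border, so these borders are not edges between classes. Cells of the bordering classes also lay among mesoderm-4 cells, 16 of mesoderm-1, 7 of mesoderm-2, 4 of the streak and 3 of blood islands. They were not left out of the border counts, facing cells or distances, so those borders are not pure edges either. The 10 members beside the endoderm cell had a median rank of 6336.5 and the 30 beside the neural ectoderm-2 cells 5338.5. Mesoderm-3 cells among the nearest cells of the band numbered 20, with a median rank of 3958 (lowest 3044, highest 5704), and the 27 connected members beside them had a median of 5620. Doublets were not analysed here.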
